A study of Mus musculus with 30 samples.

Results

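The response of sorted late G1 mouse embryonic stem (ES) cells to the loss of Esrrb supply was read from exonic RNA counts, as 3 libraries after 24 h of doxycycline (DOX) withdrawal against 3 libraries kept in DOX. These were 6 of the 30 libraries of the study, which also profiled early G1 and G2 cells by RNA-seq and Esrrb binding by ChIP-seq. All 6 came from EKOiE-Ccna-Gfp, a 129/Ola line in which the Esrrb gene is knocked out, Esrrb is supplied by a DOX-inducible transgene, and a Ccna2-Gfp reporter allows cells to be sorted by cell-cycle phase. Both groups therefore carried the knockout and differed by DOX, and the cells grew in serum with LIF on gelatine. The groups hold no DOX comparison in cells without the transgene. An effect of DOX itself therefore cannot be told apart from that of Esrrb loss, here and below. The line is given under 1 name, and the labels do not say whether its libraries were separate cultures, so p-values measure only the spread between these libraries. Of 20300 genes in the exonic table, 14092 had enough counts to be tested.

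Esrrb is an orphan nuclear receptor of the estrogen-related receptor (ERR) family. It binds DNA with the other factors that hold mouse ES cells in the naive state, among them Tfcp2l1, Klf4 and Tbx3, and it acts beside the signal of the cytokine LIF through STAT3. Other ERR receptors are known as regulators of mitochondrial and fatty acid metabolism. Late G1 is the part of the cycle in which a cell that has divided prepares to copy its DNA, and D cyclins and Myc are textbook drivers of that step.

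Each late G1 library held between 11.8 and 21.0 M exonic counts (M, mega), and the ratio of intronic to exonic counts from 0.525 to 0.716 with DOX and from 0.527 to 0.591 after withdrawal. ES cell markers dominated every library: the summed level of 8 markers, Pou5f1, Sox2 and Nanog among them, was 5222 to 5754 counts per M (CPM) with DOX and 4231 to 5664 CPM after withdrawal, and 0 of the 8 passed the test. Markers of other cells were low. Summed over 7 primitive endoderm markers they were 8.15 to 12.1 CPM with DOX and 5.18 to 12.4 CPM after withdrawal, over 5 trophoblast markers 2.71 to 3.61 and 2.77 to 6.24 CPM, over 7 fibroblast and feeder markers 8.65 to 12.5 and 7.16 to 11 CPM, and over 4 mesendoderm markers 0.672 to 1.85 and 0.985 to 2.59 CPM. The 4 neural markers summed to 72.6 to 121 and 64.2 to 72.5 CPM, nearly all of it Tubb3, at means of 86.7 and 63.5 CPM (edgeR adjusted p = 0.199), and most of the fibroblast sum was Thy1, at 9.39 and 8.12 CPM. None of these markers was at 0 in all libraries, and their part in the results was not tested.

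Esrrb, the withdrawn gene (chr12:87702066-87862578, plus strand; build mm9, coordinates as the count table gives them, here and for other genes), was read first. Its exonic level was 323, 286 and 341 CPM in DOX replicates 1, 2 and 3 and 160, 162 and 173 CPM after withdrawal. The groups did not overlap, and withdrawal took the mean from 317 ± 28.3 to 165 ± 7.21 CPM (SD, n = 3). The change was -0.94 ± 0.12 on the log2 scale (withdrawn minus DOX, ± standard error, SE; edgeR adjusted p = 0.000395) and passed in all 6 fits that left out 1 library. Exonic counts do not separate transcripts of the transgene from those of the knocked-out locus, and in sorted bulk cells fewer expressing cells and less RNA per cell cannot be told apart. Ccna2, the cyclin A gene whose reporter was used for the sort, stood at 410, 296 and 336 CPM with DOX and at 357, 377 and 377 CPM after withdrawal. These ranges overlapped, and its change was 0.10 ± 0.15 (edgeR adjusted p = 0.748).

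Withdrawal changed 1274 genes (9.04% of those tested) at an edgeR adjusted p under 0.05: 597 fell (4.24%) and 677 rose (4.8%). The fit held all 18 RNA-seq libraries and paired same-numbered ones through a replicate term shared by the 3 phases. Most changes were small. The median was -0.53 among falls and 0.51 among rises, against -0.0035 over all genes tested, and 88 falls but only 48 rises exceeded 1 log2 unit. The DOX and withdrawn values did not overlap for 445 of the falls and 478 of the rises, beside 2418 genes (17.2%) of all those tested. The counts depended on the pairing and on single libraries. Without the pairing 39 falls and 26 rises were called. With pairing within each phase 258 falls and 263 rises were called, and with the late G1 libraries alone 202 and 354. Leaving out DOX replicate 1, 2 or 3 gave 250, 313 and 272 falls with 203, 531 and 308 rises, and leaving out withdrawn replicate 1, 2 or 3 gave 411, 205 and 319 falls with 399, 223 and 410 rises. In each of these 6 fits 142 of the falls and 121 of the rises passed, and 75 and 58 passed in each of the 3 fits that left out a whole pair.

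**Figure D1:**
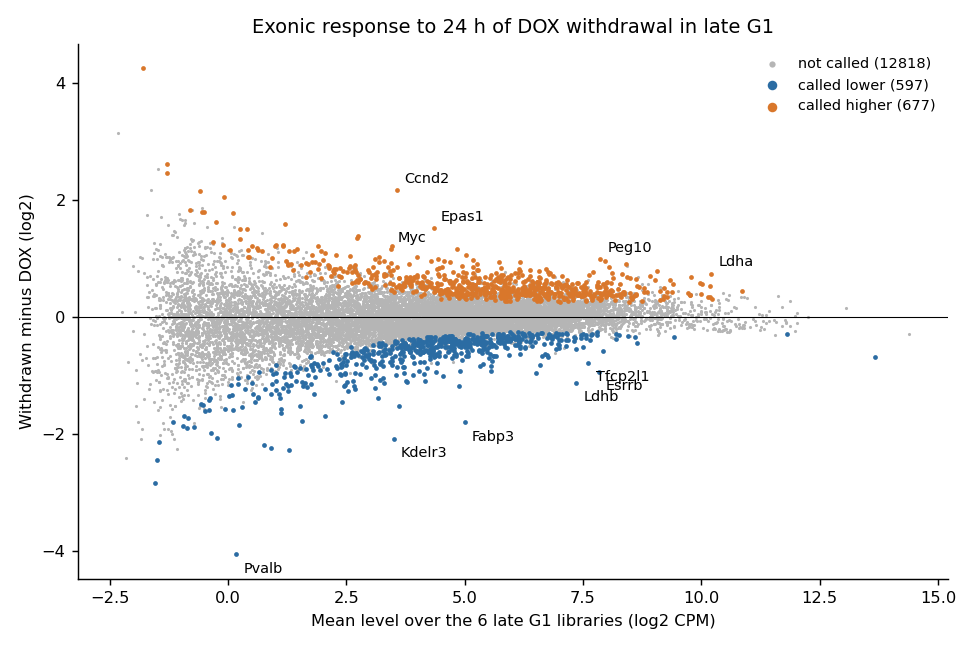
Change on DOX withdrawal (log2, y axis) against the mean level over the 6 late G1 libraries (log2 CPM, x axis), 1 point per gene tested, with the 597 genes called lower in blue and the 677 called higher in orange. Most called genes lie within 1 log2 unit of 0, and Kdelr3, Fabp3 and Ccnd2 stand out among genes of moderate level.

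The largest falls, among called genes with a mean level of at least 2 log2 CPM and the same sign in all pairs, began with Kdelr3 (chr15:79346837-79358169, plus strand), a receptor that returns escaped chaperones from the Golgi to the endoplasmic reticulum. It stood at 26.3, 26.1 and 18.2 CPM with DOX and at 4.59, 7.70 and 4.38 CPM after withdrawal. Every withdrawn library lay below every DOX library, and the change was -2.09 ± 0.19 (edgeR adjusted p = 6.73e-06). Fabp3 (chr4:129986021-129992707, plus strand), a carrier of fatty acids in the cytoplasm, went from 77.2, 67.8 and 41.3 CPM to 23.4, 20.7 and 10.1 CPM. It fell in each pair, with replicate 3 the lowest of both groups, by 1.81 ± 0.21 (edgeR adjusted p = 0.000178). Below it came Klhdc7a (a kelch-repeat protein; -1.70 ± 0.20), Ly6g6e (a surface protein of the Ly6 family; -1.52 ± 0.12) and Jakmip1 (a microtubule-binding protein; -1.46 ± 0.18).

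The rest of these 15 falls were of several kinds. Wnt7b, a WNT ligand, was at 12.6, 14.4 and 16.5 CPM with DOX and 6.12, 5.60 and 4.87 CPM after withdrawal, without overlap, and changed by -1.39 ± 0.18 (edgeR adjusted p = 0.000395). Ntn1, the secreted guidance protein netrin, changed by -1.26 ± 0.27, Trf, the iron carrier transferrin, by -1.18 ± 0.17, and Wfdc2, a secreted protease-inhibitor-like protein, by -1.13 ± 0.17. Pdk4 is the kinase that shuts pyruvate out of the citric acid cycle. Its levels of 10.5, 9.33 and 9.42 CPM fell to 4.76, 3.19 and 4.48 CPM, a change of -1.24 ± 0.15 (edgeR adjusted p = 0.000212). Ldhb, the lactate dehydrogenase subunit of oxidative tissues, had the highest level of the 15, with 270, 229 and 231 CPM against 116, 124 and 93.3 CPM. Its groups were far apart for their spread, and it changed by -1.14 ± 0.10 (edgeR adjusted p = 6.73e-06). Further members were Jdp2, a leucine-zipper repressor of AP-1 (-1.22 ± 0.19), Pramel6, a PRAME-family protein of naive cells (-1.18 ± 0.20), and Anxa5, an annexin (-1.16 ± 0.20). All 15 passed in each fit without 1 library, and 10 of them without the pairing; Jakmip1, Ntn1, Jdp2 and Anxa5 were among those that did not. With 1 pair left out 13 of the 15 passed in all 3 fits, Pramel6 in 2 and Ntn1 in 0.

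Among the 15 largest rises, Ccnd2 (chr6:127075726-127101066, minus strand) came first. It encodes cyclin D2, a partner of the kinases that move cells out of G1. Its level was 2.90, 6.47 and 8.27 CPM with DOX and 25.4, 30.5 and 22.2 CPM after withdrawal. The lowest withdrawn library was well above the highest DOX library, and the change was 2.18 ± 0.24 (edgeR adjusted p = 0.000151). Epas1, a hypoxia-inducible transcription factor, went up from 9.37, 13.4 and 13.4 CPM to 46.6, 33.9 and 25.9 CPM, by 1.53 ± 0.20 (edgeR adjusted p = 0.000419). Myc, a transcription factor that promotes growth, rose from 5.81, 7.31 and 8.63 CPM to 23.8, 15.2 and 11.4 CPM, by 1.17 ± 0.24 (edgeR adjusted p = 0.00703). In both the groups did not overlap, but replicate 1 was the lowest DOX library and the highest withdrawn one.

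Lrrk1, a leucine-rich repeat kinase, changed by 1.39 ± 0.19, Nlrc4, an inflammasome sensor, by 1.36 ± 0.19, and Ak7, an adenylate kinase, by 1.22 ± 0.19. Transcription factors were represented by Ppard, the lipid-sensing nuclear receptor PPAR-delta (1.07 ± 0.31), Bcl6b, a zinc-finger repressor (1.03 ± 0.18), and Myrf, a membrane-tethered factor (1.00 ± 0.22). Sema4d, a semaphorin (1.03 ± 0.17), and Tenm4, a teneurin (1.06 ± 0.27), are cell-surface proteins of axon guidance and adhesion. Mtap7d3, a microtubule-associated protein (1.09 ± 0.20), and Nlrp9b, a NOD-like receptor of oocytes and early embryos (1.04 ± 0.23), were low in both groups. Peg10, an imprinted gene of retrotransposon origin, went from 151, 153 and 193 CPM to 494, 208 and 350 CPM (1.00 ± 0.21; edgeR adjusted p = 0.00838). Its withdrawn libraries differed more among themselves than its DOX libraries did. Rps16 (1.17 ± 0.26) is a ribosomal protein gene with many near-identical copies, so its count is uncertain as a single gene, and withdrawn replicate 3 at 73.0 CPM stood apart from the other 2 at 35.8 and 29.1 CPM. Of the 15, 8 passed in each fit without 1 library, 8 in each fit without 1 pair and 8 without the pairing. Ppard and Tenm4 passed in 2 of the 6 such fits and Rps16 in 3.

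**Figure D2:**
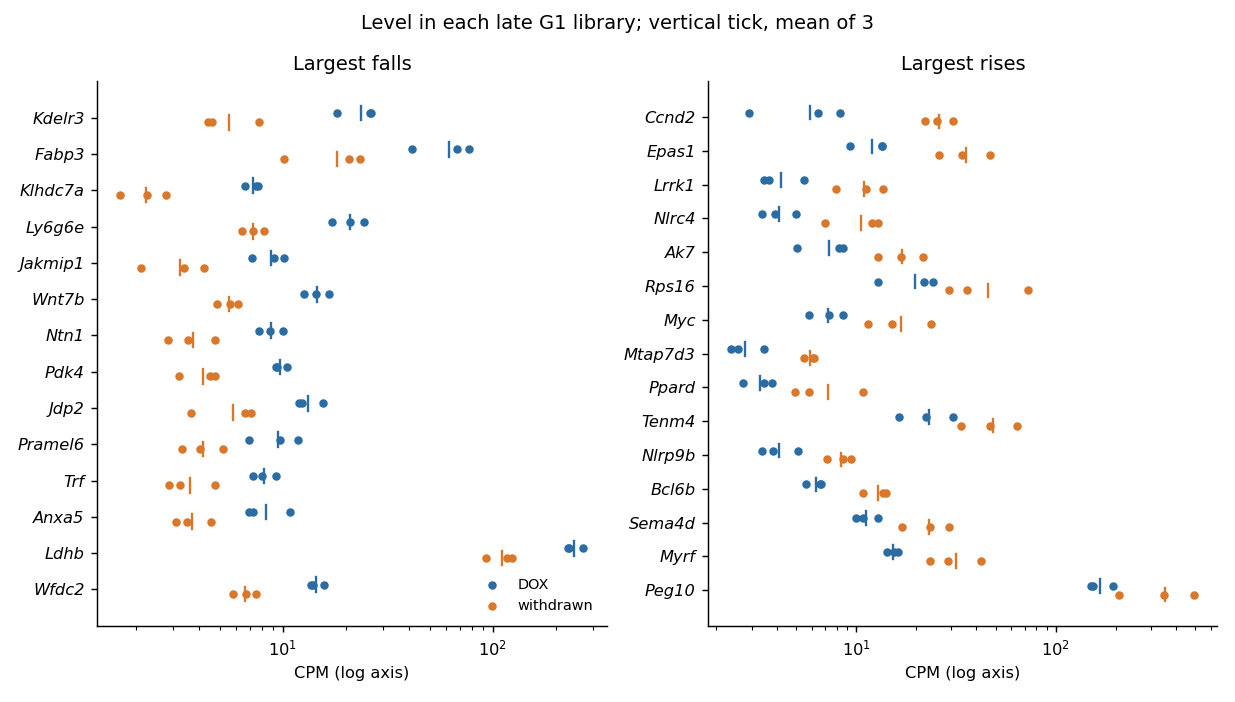
Level of the largest falls (left) and rises (right) named in the text in each late G1 library, as CPM on a log axis; blue points are the 3 DOX libraries, orange points the 3 withdrawn libraries and vertical ticks the group means. The groups do not overlap for any of these genes, and the withdrawn libraries of Rps16, Ppard and Peg10 are more widely spread than their DOX libraries.

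Changes of abundant transcripts were mostly small. Among the 6 most abundant falls were Rps2, a ribosomal protein gene with near-identical copies (-0.30 ± 0.07), Asns, asparagine synthetase (-0.35 ± 0.10), Apoe, a lipid carrier (-0.44 ± 0.12), Eif4h, a translation initiation factor (-0.35 ± 0.07), and Rnf4, a SUMO-targeted ubiquitin ligase (-0.33 ± 0.10). Ldha, the lactate dehydrogenase subunit typical of glycolytic cells, was the largest of the 6 most abundant rises. It stood at 980, 677 and 1142 CPM with DOX and at 1555, 1413 and 1623 CPM after withdrawal, without overlap (0.74 ± 0.11; edgeR adjusted p = 0.000919). The others were Eif4g2 (0.57 ± 0.13) and Caprin1 (0.53 ± 0.08), which act in translation and its regulation, Set, a histone chaperone (0.45 ± 0.10), Usp9x, a deubiquitinase (0.35 ± 0.09), and Prdx1, a peroxidase (0.31 ± 0.08). Eif4h, Ldha and Caprin1 passed in all 6 fits without 1 library, and the other 8 genes just named in 3 or fewer.

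Naive pluripotency genes were changed in part. Of 27 tested, 6 fell (22.2%, beside 4.24% of all genes) and 1 rose (3.70%, beside 4.8%), with a median of -0.19. The falls include Esrrb, the withdrawn gene itself. Tfcp2l1, a transcription factor that binds beside Esrrb, went from 220, 283 and 278 CPM to 142, 172 and 134 CPM, without overlap (-0.79 ± 0.11; edgeR adjusted p = 0.000397). Jam2, a junction adhesion molecule, went from 147, 117 and 120 CPM to 59.8, 84.3 and 55.7 CPM, also without overlap (-0.96 ± 0.16; edgeR adjusted p = 0.00169). Tbx3, a T-box factor, fell in every pair, though its groups overlapped, from 19.1, 30.6 and 30.8 CPM to 12, 18.7 and 20.6 CPM (-0.66 ± 0.14; edgeR adjusted p = 0.00959). Nlrp4f, an oocyte and ES cell NOD-like receptor (-0.55 ± 0.17), and Tcl1, a cofactor of AKT kinase (-0.47 ± 0.12), completed the falls with Esrrb. Dppa2, a chromatin factor of early development, rose (0.35 ± 0.09). The most abundant members did not pass: Dppa5a changed by -0.19 ± 0.09, Zfp42 by -0.31 ± 0.17, Tdgf1 by -0.08 ± 0.16 and Cdh1 by 0.37 ± 0.18. In each fit without 1 library 4 of the falls passed, and without the pairing 3 did, with 0 rises. Esrrb is counted in both.

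The list of core pluripotency genes, shared by naive and later pluripotent cells, held rises and no falls. It also holds chromatin regulators, Smarca4 and Kdm4c among them. None of 18 fell and 4 rose (22.2%), with a median of 0.36, and all 18 had a change above 0 under the scaling used. Dnmt3l, a cofactor of DNA methyltransferases, rose from 238, 261 and 371 CPM to 381, 414 and 591 CPM without overlap (0.67 ± 0.11; edgeR adjusted p = 0.00148). Kdm4c, a histone demethylase (0.38 ± 0.09), and Rif1, a telomere and replication-timing factor (0.34 ± 0.10), also rose. Pou5f1, the gene of OCT4, changed by 0.06 ± 0.08, Sox2 by 0.03 ± 0.10, Lin28a by 0.28 ± 0.09 and L1td1 by 0.56 ± 0.19, none of which passed. Dnmt3l passed in each fit without 1 library. Without the pairing 0 members rose, and with RLE scaling 7 did.

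Targets of LIF and STAT3 held the highest share of falls among the lists. Of 22, 8 fell (36.4%) and 1 rose, with a median of -0.19. Gjb5, a gap-junction connexin, went from 22.8, 19.4 and 18.6 CPM to 11.9, 10.1 and 6.70 CPM, without overlap (-1.11 ± 0.18; edgeR adjusted p = 0.00161). Pramel7, a paralog of Pramel6, was at 3.70, 3.61 and 8.39 CPM with DOX and 1.76, 1.62 and 3.59 CPM after withdrawal, and fell by 1.15 ± 0.23 (edgeR adjusted p = 0.00618). Pim3, a survival kinase, changed by -0.51 ± 0.09, Junb, an AP-1 subunit, by -0.44 ± 0.13, and Icam1, an adhesion molecule, by -0.29 ± 0.09. Pml, the nuclear-body protein, rose (0.76 ± 0.23). The pathway's own parts did not pass: Stat3 changed by -0.01 ± 0.12, Socs3, its feedback inhibitor, by -0.17 ± 0.08, and the receptor gene Lifr by 0.25 ± 0.09. In each fit without 1 library 5 of the falls passed, and without the pairing 3 did, with 0 rises.

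Genes of formative and primed cells, the states that follow naive pluripotency, held 6 rises (22.2%) and 1 fall among 27, with a median of 0.21. Foxp1, a forkhead factor, rose from 34.3, 35.2 and 45.8 CPM to 65.1, 66.7 and 90.0 CPM without overlap (0.94 ± 0.11; edgeR adjusted p = 0.000236). Dnmt3b, a de novo DNA methyltransferase, rose from 148, 135 and 206 CPM to 299, 215 and 317 CPM (0.77 ± 0.14; edgeR adjusted p = 0.00299). Lef1, a transcription factor of the WNT pathway, was low with DOX, at 1.58, 1.09 and 1.34 CPM, and uneven after withdrawal, at 4.0, 1.56 and 6.99 CPM (1.59 ± 0.35; edgeR adjusted p = 0.0101). Replicate 2 of the withdrawn group overlapped the DOX range. Zic2 (0.76 ± 0.20), Zic5 (0.80 ± 0.22) and Lin28b, a repressor of let-7 maturation (0.49 ± 0.10), also rose, and Epha4, an ephrin receptor, fell (-0.63 ± 0.13). Etv5 (0.21 ± 0.10), Nodal (-0.17 ± 0.10) and Lefty1 (-0.53 ± 0.20) did not pass. In each fit without 1 library Epha4, Foxp1 and Dnmt3b passed, and without the pairing only Foxp1 rose.

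Growth-factor signalling was read through its own genes. In the FGF and ERK list 6 of 25 rose (24.0%) and 0 fell, with a median of 0.18. Spry4, a feedback inhibitor of the pathway, rose from 24.0, 22.9 and 28.4 CPM to 44.1, 39.9 and 43.5 CPM without overlap (0.76 ± 0.12; edgeR adjusted p = 0.00185). The others were Spred2, another inhibitor (0.57 ± 0.14), Etv1, an ETS factor (0.60 ± 0.15), Mapk3, which encodes a terminal ERK kinase (0.43 ± 0.13), Ccnd1, cyclin D1 (0.49 ± 0.15), and Myc. Immediate-early genes, which respond within minutes to many stimuli, gave 5 falls (25%) and 1 rise (5.0%) among 20. Atf3 (-1.31 ± 0.30), Fos (-0.77 ± 0.14), Btg2 (-0.55 ± 0.13), Cyr61 (-0.51 ± 0.16) and Junb fell, and Myc rose. Fos went from 25.1, 22.3 and 18.3 CPM to 16.7, 8.61 and 13.5 CPM without overlap, whereas the groups of Atf3, Btg2, Cyr61 and Junb overlapped. Spry4 and Fos passed in each fit without 1 library. Without the pairing 2 FGF and ERK genes rose, 0 immediate-early genes fell and 1 rose.

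The WNT and TGF-beta families were mixed. Of 27 WNT genes, the ligand Wnt7b and the secreted antagonist Sfrp1 (-0.67 ± 0.16) fell, while Lef1, Porcn, which acylates WNT ligands (0.60 ± 0.15), and Gsk3b, a kinase that destabilises beta-catenin (0.39 ± 0.11), rose, shares of 7.41% and 11.1%. Ctnnb1, the beta-catenin gene, changed by 0.04 ± 0.08. Of 25 TGF-beta, Nodal and BMP genes, Smad7, an inhibitory SMAD, fell (4.0%; -0.53 ± 0.13), and Id1 (0.58 ± 0.12) and Id2 (0.62 ± 0.18), targets of BMP signalling, rose (8.0%). Of the calls in these 2 lists only Wnt7b passed in each fit without 1 library, and only Wnt7b without the pairing.

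Metabolic genes held calls in both directions. Of 32 genes of ERR metabolism and fatty acid use, 4 fell (12.5%) and 1 rose, with a median of -0.06. Besides Fabp3 and Pdk4 the falls were Cpt1a, which brings fatty acids into mitochondria (24.6, 23.5 and 23.9 CPM to 17.7, 13.7 and 14.3 CPM, without overlap; -0.66 ± 0.12; edgeR adjusted p = 0.00299), and Acsl6, which activates fatty acids (-0.85 ± 0.16). Its paralog Acsl4 rose (0.39 ± 0.09). All 4 of these falls passed in each fit without 1 library, and all but Cpt1a without the pairing. Of 94 subunits and assembly factors of the respiratory chain and ATP synthase, 6 fell (6.38%) and 0 rose. The median of this list was -0.07 with 68 of 94 below 0, beside -0.0035 and 7115 of 14092 for all genes tested. The changes of the falls, from -0.26 ± 0.08 in Atp5g2 to -0.37 ± 0.08 in Cox5b, were small. None of the 6 passed without the pairing or in each fit without 1 library. In the citric acid cycle Idh2, mitochondrial isocitrate dehydrogenase, fell from 140, 148 and 112 CPM to 81.3, 97.4 and 77.2 CPM without overlap (-0.64 ± 0.09; edgeR adjusted p = 0.000573). Sdhb fell by 0.34 ± 0.08 and Mdh2 rose by 0.33 ± 0.10 among the 25 genes of that cycle (8.0% fell and 4.0% rose). Of these 3 only Idh2 passed in each fit without 1 library, and none without the pairing.

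Lactate and oxygen genes were among the rises. Of 24 glycolysis and lactate genes, Ldhb fell (4.17%) while Ldha, Pfkl (0.38 ± 0.08) and Pfkfb3 (0.44 ± 0.12) rose (12.5%). The last pair encode a subunit of phosphofructokinase and a regulator of it. The abundant glycolytic genes Pkm (-0.00 ± 0.09), Aldoa (0.13 ± 0.07), Pgk1 (0.38 ± 0.17) and the glucose transporter gene Slc2a3 (-0.24 ± 0.13) did not pass. Ldhb and Ldha passed in each fit without 1 library, and only Ldhb without the pairing. Of 21 hypoxia-inducible factors and targets, 3 rose (14.3%) and 0 fell, with a median of 0.22. They were Epas1, Egln3, an oxygen-sensing hydroxylase (0.66 ± 0.17), and Kdm3a, a histone demethylase, which went from 116, 116 and 154 CPM to 164, 204 and 199 CPM without overlap (0.56 ± 0.09; edgeR adjusted p = 0.00121). Epas1 and Kdm3a passed in each fit without 1 library, and Egln3 in 2 of the 6, and only Epas1 passed without the pairing. Hif1a itself changed by -0.17 ± 0.08.

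Of 29 genes of the ATF4 response, which raises amino acid supply under stress, 6 fell (20.7%) and 1 rose, with a median of -0.05. Atf4, its transcription factor, went from 221, 301 and 392 CPM to 140, 188 and 291 CPM. It fell in every pair, although the groups overlapped (-0.58 ± 0.12; edgeR adjusted p = 0.00868). Ddah2, a hydrolase of methylated arginine (-0.70 ± 0.11), Ass1, argininosuccinate synthase (-0.48 ± 0.08), Trib3, a pseudokinase (-0.59 ± 0.17), Sesn2, a leucine sensor (-0.42 ± 0.12), and Asns also fell. The amino acid transporter gene Slc38a2 rose (0.44 ± 0.09). Ddah2, Ass1 and Slc38a2 passed in each fit without 1 library, and Ddah2 and Ass1 also without the pairing. The serine-synthesis genes Phgdh (0.02 ± 0.10) and Psat1 (0.24 ± 0.10) did not pass. Of 21 p53 targets 4 fell (19.0%) and 1, Zmat3 (0.70 ± 0.18), rose (4.76%). Plk2 (-0.39 ± 0.11) and Phlda3 (-0.42 ± 0.13) were among the falls, and Mdm2 changed by -0.26 ± 0.11 without passing. None of the p53 calls passed in all 6 fits without 1 library, and none without the pairing.

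Of 26 genes of cholesterol and fatty acid supply 2 fell and 2 rose (7.69% each). Mvk (-0.57 ± 0.11) and Pmvk (-0.56 ± 0.09), consecutive kinases of the mevalonate pathway, fell. Fasn, fatty acid synthase (0.86 ± 0.19), and Acaca, acetyl-CoA carboxylase (0.45 ± 0.12), rose. Fasn stood at 161, 209 and 227 CPM with DOX and at 488, 302 and 317 CPM after withdrawal, without overlap and with withdrawn replicate 1 the highest. Mvk and Pmvk passed in each fit without 1 library, Fasn in 4 of the 6 and Acaca in 0, and none of these 4 passed without the pairing. Of 23 genes of endoplasmic reticulum retrieval and chaperones, Kdelr3 fell and Hsp90b1, a chaperone retained by such receptors, rose (0.56 ± 0.10). These are 4.35% each way, near the 4.24% and 4.8% of all genes. Kdelr3 and Hsp90b1 passed in each fit without 1 library, and only Kdelr3 without the pairing. Hspa5 (-0.05 ± 0.08) and Calr (-0.00 ± 0.07), other retained chaperones, did not pass.

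Adhesion and junction genes held 7 falls (24.1%) and 2 rises among 29, although the list's median was -0.02. Cdh3, P-cadherin, went from 54.5, 67.4 and 73.3 CPM to 37.2, 29.2 and 35.5 CPM without overlap (-0.92 ± 0.14; edgeR adjusted p = 0.00103). Llgl2, an epithelial polarity protein, went from 58.0, 65.5 and 62.4 CPM to 44.6, 31.1 and 34.7 CPM, also without overlap (-0.76 ± 0.12; edgeR adjusted p = 0.0015). Tjp3, a tight-junction scaffold (-0.85 ± 0.19), Cldn4, a claudin (-0.65 ± 0.13), Jam2 and Icam1 were among the other falls. Ctnnd1, p120-catenin (0.70 ± 0.18), and Itgb1, the beta-1 integrin (0.39 ± 0.10), rose. The shared backbone of adherens junctions did not pass, with Ctnna1 at -0.02 ± 0.11 and Cdh1 as above. In each fit without 1 library Jam2, Cdh3 and Llgl2 passed, and without the pairing 3 members fell and 0 rose.

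Cell-cycle calls fell mostly on G1 regulators. Of 32 D cyclins and G1 regulators 5 rose (15.6%) and 0 fell: Ccnd2, Myc, Ccnd1, Cdkn1c, a CDK inhibitor (0.68 ± 0.20), and Skp2, which targets CDK inhibitors for breakdown (0.40 ± 0.11). Ccnd1 stood at 91.3, 68.2 and 119 CPM with DOX and at 125, 113 and 150 CPM after withdrawal, with overlapping groups (edgeR adjusted p = 0.0429), and did not pass in any fit without 1 library. Ccnd2 and Myc were the members that passed without the pairing. Ccnd3 (-0.13 ± 0.10), Cdk4 (-0.15 ± 0.08) and Ccne1 (0.13 ± 0.13) did not pass. Of 40 genes of G1/S and DNA replication 2 rose (5.0%, beside 4.8% of all genes) and 0 fell, and of 36 genes of G2/M and mitosis only Ccnb2 fell (2.78%; -0.40 ± 0.09), calls that were lost without the pairing and in at least 1 fit without 1 library. Top2a (-0.17 ± 0.51) and Ccnb1 (-0.05 ± 0.31) had large errors, and their spread between libraries of the same sort gate limits what could be detected. None of 60 tested replication histone genes passed in edgeR; they are near-identical copies and uncertain singly.

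Among chromatin regulators the calls were all rises. Of 36 remodellers and Polycomb genes 8 rose (22.2%, beside 4.8%) and 0 fell, with a median of 0.29 and 32 of 36 above 0. Chd7, a helicase of the CHD family, rose from 40.5, 46.6 and 44.0 CPM to 78.2, 61.6 and 77.2 CPM without overlap (0.73 ± 0.14; edgeR adjusted p = 0.00593). Arid1a, a subunit of the BAF complex, rose from 45.9, 60.4 and 50.4 CPM to 131, 88.2 and 87.9 CPM (0.95 ± 0.23; edgeR adjusted p = 0.0168). Ezh2 (0.57 ± 0.12) and Eed (0.34 ± 0.09), of Polycomb complex PRC2, Ino80 (0.68 ± 0.12), Chd8 (0.58 ± 0.15), Chd9 (0.51 ± 0.13) and Kmt2c (0.57 ± 0.16) were the others. Chd7 and Ino80 passed in each fit without 1 library. Without the pairing 1 member rose.

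Genes that rose were longer and more highly expressed at the median than genes that fell. Their median span in the genome was 44.7 kb, against 17.9 kb for falls and 21.6 kb for all genes tested, and their median mean level was 5.70 log2 CPM against 4.34 and 4.32. By span, 8.66% of the 3523 longest genes (over 51.5 kb) rose and 3.35% fell, while 2.02% of the 3523 shortest (up to 9.10 kb) rose and 5.0% fell. The median change was 0.06 among the longest and -0.06 among the shortest, with pair medians of 0.07, 0.01 and 0.09 and of -0.06, -0.04 and -0.09. The part of gene length in the calls and list medians above, those of chromatin and respiratory chain genes included, was not tested.

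Of 26 nuclear receptors and cofactors 2 fell (7.69%) and 5 rose (19.2%). The falls were Esrrb, the withdrawn gene itself, and Rxra, the shared partner of many receptors (-0.52 ± 0.11). Among the rises were Ppard, Rarg, a retinoic acid receptor (0.53 ± 0.10), Nr6a1, an orphan repressor (0.37 ± 0.08), and Nr1d2, a REV-ERB receptor (0.44 ± 0.11). Rarg went from 66.5, 68.0 and 77.6 CPM to 90.2, 96.5 and 121 CPM without overlap (edgeR adjusted p = 0.00373). Esrrb and Rarg passed in each fit without 1 library, and only Esrrb without the pairing. Nr0b1, a repressor bound to Esrrb in ES cells, changed by 0.11 ± 0.14.

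Ribosomal protein genes held few calls. Of 81 cytosolic ribosomal protein genes 1 fell and 1 rose (1.23% each, beside 4.24% and 4.8% of all genes), with a median of -0.10. Of 77 mitochondrial ribosomal protein genes 3 fell, among them Mrpl2 (-0.42 ± 0.08), and 0 rose, with a median of -0.04. Their share of falls, 3.90%, was near that of all genes. Of 23 genes of DNA methylation and its removal, Dnmt3b and Dnmt3l rose (8.70%), and Dnmt1 (0.23 ± 0.15) and Tet1 (0.43 ± 0.17) did not pass. The lineage lists had 9 to 18 members tested, so that 1 call is a large share of a list. In primitive endoderm (18 genes, 5.56% called in each direction) Gata6, its first transcription factor, fell from 1.45, 0.924 and 0.912 CPM to 0.294, 0.301 and 0.640 CPM (-1.38 ± 0.42; edgeR adjusted p = 0.0471) and did not pass in any fit without 1 library. Lrp2, an endocytic receptor, rose (0.69 ± 0.17). Among 16 trophoblast genes Esx1 (-1.61 ± 0.37) and Wnt7b fell (12.5%) and Id2 rose (6.25%), all but Wnt7b failing without the pairing. Gap43, a growth-cone protein (0.77 ± 0.17), rose among 10 neural genes (10.0%) and Fn1, fibronectin (0.71 ± 0.17), among 11 fibroblast and feeder genes (9.09%). The exonic rises of Lrp2, Gap43 and Fn1 were lost without the pairing and in at least 1 fit without 1 library. None of 9 mesendoderm or 13 tested 2-cell-like genes passed in edgeR.

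**Figure D3:**
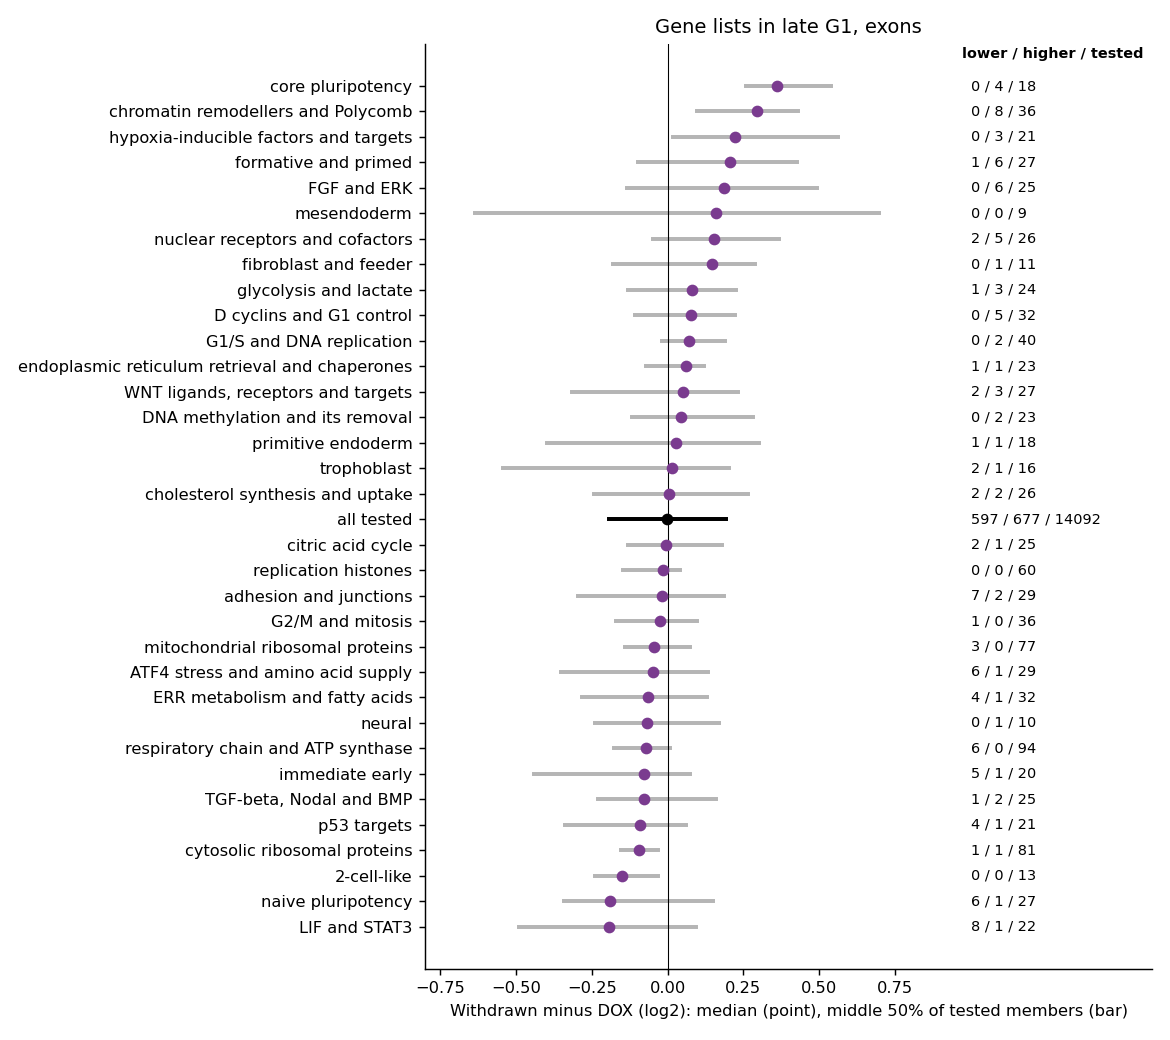
Median change on withdrawal of the tested members of 33 gene lists (log2, points; bars span the middle 50% of members), ordered by median, with all 14092 genes in black and the number called lower, called higher and tested printed at the right. Core pluripotency and chromatin lists lie highest, with medians of 0.36 and 0.29, and naive pluripotency and LIF and STAT3 targets lowest, at -0.19 each.

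Introns of the same libraries, which report unspliced RNA, gave 50 falls (0.355%) and 39 rises (0.277%) among 14075 genes in edgeR, and 2 and 0 without the pairing. Both readouts use the same 6 libraries, so values are given side by side only. Fabp3 changed by -1.69 ± 0.29 in introns beside -1.81 in exons, Wnt7b by -1.28 ± 0.16 beside -1.39, Tfcp2l1 by -0.72 ± 0.10 beside -0.79 and Jam2 by -0.65 ± 0.10 beside -0.96, all 4 with an edgeR adjusted p of 0.00692 or less in introns. Idh2 (-0.66 ± 0.13), Apoe (-0.70 ± 0.12) and Llgl2 (-0.58 ± 0.10) also fell in introns. For Esrrb the intronic change was -0.14 ± 0.10 (edgeR adjusted p = 0.571), from 119 to 108 CPM, beside -0.94 in exons.

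Among the 15 largest exonic falls, 13 had an intronic test and 6 passed it. Among the 15 largest rises all had one and 0 passed in edgeR: Ccnd2 changed by 0.83 ± 0.26 in introns, Epas1 by 0.34 ± 0.12 and Myc by 0.29 ± 0.35. Nlrc4 had an intronic change of -0.29 ± 0.13 beside its exonic rise. Its mean intronic level was 459 CPM with DOX and 378 CPM after withdrawal, far above its exonic 4.10 and 10.6 CPM. Whether these intronic counts come from Nlrc4 RNA was not tested. The intronic rises included Gap43 (1.31 ± 0.22), Aox3, an aldehyde oxidase (1.21 ± 0.28), Cd96, an immunoglobulin-family receptor (1.19 ± 0.23), and Ldha (0.55 ± 0.13). The largest intronic fall was Pvalb, the calcium buffer parvalbumin (-4.11 ± 0.62). In exons it had 66, 53 and 48 counts with DOX and 2, 4 and 6 after withdrawal, and changed by -4.07 ± 0.36 (edgeR adjusted p = 6.73e-06), passing in all 6 fits without 1 library. Tinagl1, a matrix-associated protein, went the same way, by -1.43 ± 0.32 in introns and -2.28 ± 0.26 in exons. Both were too low in expression for the list of largest falls above. Leaving out DOX replicate 1, 2 or 3 gave 16, 24 and 19 intronic falls with 8, 16 and 6 rises, and leaving out withdrawn replicate 1, 2 or 3 gave 37, 10 and 19 falls with 26, 4 and 12 rises.

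Esrrb binding was set beside the response through the deposited table of 14559 ChIP-seq peaks, measured in asynchronous and mitotic cells and not in sorted late G1 cells. The start of a gene that fell lay within 10 kb of a peak centre for 281 of 597 genes (47.1%), against 3839 of all 14092 genes tested (27.2%) and 178 of 677 rises (26.3%). Within 1 kb the shares were 16.6%, 7.72% and 6.94%, and within 50 kb 80.1%, 60.9% and 57.5%, in the same order. The median distance to a peak was 11 kb for falls, 31.9 kb for all genes and 35.4 kb for rises. Restricted to the 1980 peaks that the authors class as Bookmarked, 27.6% of falls, 18.8% of all genes and 18.6% of rises had one within 50 kb. In the same order the shares were 7.87%, 5.86% and 6.94% within 10 kb, and 2.01%, 1.41% and 1.77% within 1 kb. Of the 15 largest falls, 10 had a peak within 10 kb, Ly6g6e the nearest at 0.336 kb, and of the 15 largest rises 7 had one, Myc at 0.805 kb among them. The 48 rises beyond 1 log2 unit had a peak within 10 kb in 37.5% and within 50 kb in 72.9%, above the shares of all genes, and within 1 kb in 4.17%, below it; the 88 such falls had one in 51.1%, 85.2% and 18.2%. These shares are descriptions, without a test.

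**Figure D4:**
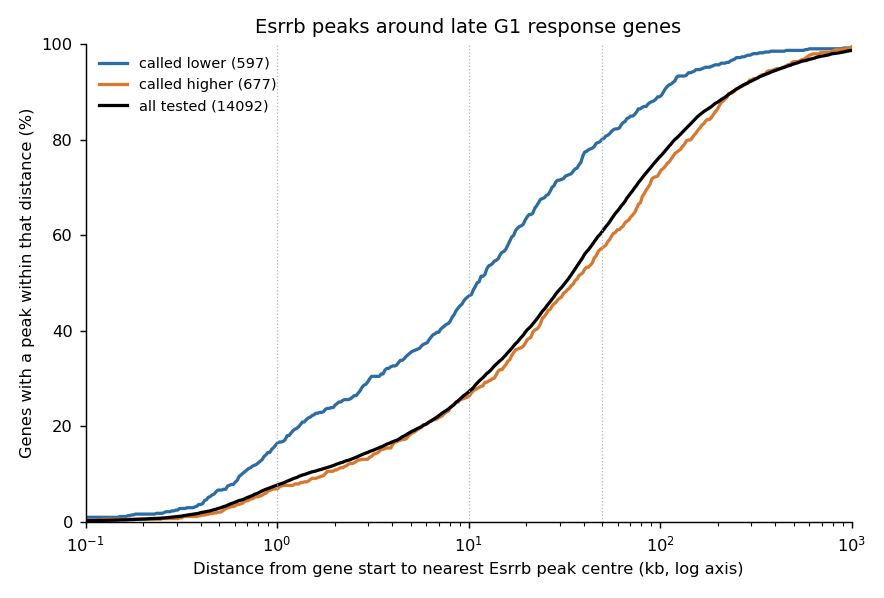
Percentage of genes (y axis) whose start lies within a given distance (kb, log x axis) of the centre of an Esrrb peak, for the 597 falls (blue), the 677 rises (orange) and all 14092 genes tested (black), with dotted lines at 1, 10 and 50 kb. The line of the falls runs above the other 2 over most of the range, with 47.1% at 10 kb against 27.2% for all genes, and the line of all rises lies near that of all genes, at 26.3%.

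Promoters were read for at most 6 named called genes with 1 listed promoter and a peak centre within 500 bases of the start. The 6 that were read were all falls, and with this limit they do not show whether rises also qualified. The promoters of 3 are shown, chosen after the search had been run, because they put sequence beside both binding and response: Gjb5 and Klk1, which held a match to the searched letters, and Tcl1, which did not. They come from RefSeq on build GRCm38.p6 and run from 250 bases before to 50 after the annotated start, 5′ to 3′ along the gene. The letters searched were AAGGTCA, the core of the ERR response element, and TCAAGGTCA, the extended element that contains it, on both strands (TGACCTT is the core read on the other strand), with matches in capitals.
Gjb5: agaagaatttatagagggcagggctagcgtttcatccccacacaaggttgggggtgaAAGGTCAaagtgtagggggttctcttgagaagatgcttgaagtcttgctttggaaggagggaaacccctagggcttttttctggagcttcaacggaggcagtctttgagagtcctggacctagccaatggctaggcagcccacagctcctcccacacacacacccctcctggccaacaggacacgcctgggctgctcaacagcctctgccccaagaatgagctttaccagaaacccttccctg
Klk1: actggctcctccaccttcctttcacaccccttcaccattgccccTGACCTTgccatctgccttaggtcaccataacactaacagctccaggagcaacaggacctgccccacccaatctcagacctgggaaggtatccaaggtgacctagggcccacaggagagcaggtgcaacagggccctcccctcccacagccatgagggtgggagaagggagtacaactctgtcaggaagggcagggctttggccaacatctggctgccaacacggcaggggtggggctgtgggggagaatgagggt
Tcl1: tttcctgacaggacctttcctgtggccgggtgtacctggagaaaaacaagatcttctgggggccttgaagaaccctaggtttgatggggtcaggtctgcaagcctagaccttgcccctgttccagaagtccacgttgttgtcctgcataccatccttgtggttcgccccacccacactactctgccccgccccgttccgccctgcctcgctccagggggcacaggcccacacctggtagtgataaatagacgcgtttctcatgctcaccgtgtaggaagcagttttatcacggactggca
The Gjb5 window (chr4:127358115-127358414, minus strand) held 1 match to AAGGTCA, beginning 193 bases before the start. Its nearest peak centre was 0.417 kb away, in the authors' class 5, which they call Lost. The Klk1 window (chr7:44225110-44225409, plus strand) held 1 match on the other strand, beginning 206 bases before the start. The window of Tcl1 (chr12:105222688-105222987, minus strand) held none, and neither did those of the other 3 genes, Sdhb, Sh2d4b and Pbxip1. Klk1, a kallikrein protease, has a class 3, Bookmarked peak 0.43 kb from its start and fell from 5.41, 2.27 and 4.32 CPM to 0.882, 0.602 and 0.985 CPM, without overlap (-2.25 ± 0.35; edgeR adjusted p = 0.00121). Tcl1 has a class 4 peak 0.428 kb from its start, and went from 126, 124 and 111 CPM to 71.8, 102 and 88.6 CPM, without overlap (edgeR adjusted p = 0.0233).

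Over all genes with a promoter in the table, AAGGTCA was present on either strand in 27 of 657 promoters of falls (4.11%), 19 of 717 of rises (2.65%) and 483 of 14344 of all genes tested (3.37%). The extended element was in 5, 1 and 40 of these. The windows were similar in GC content, with a median of 61.0%, 62.7% and 60.3%. Their median ratio of observed to expected CG pairs was 0.667, 0.796 and 0.727, in the same order. A match names letters in a window and not a bound site.

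Of called genes with a peak within 1 kb, those with the highest peaks in asynchronous cells were, among falls, Sfrp1, Sh2d4b, an adaptor protein (-0.96 ± 0.23), Klk1, Pbxip1, a partner of PBX factors (-0.51 ± 0.15), and Slc15a1, a peptide transporter (-1.17 ± 0.28). Among rises they were Rif1, Gse1, a subunit of a histone deacetylase complex (0.78 ± 0.13), Chd9, Dppa2 and Wdfy3, an autophagy adaptor (0.56 ± 0.14). The peaks of 8 of these 10 belong to class 4, and those of Klk1 and Wdfy3 to the Bookmarked classes 3 and 2. Dppa2, in which the peak centre lies 0.0355 kb from the start, went from 99.0, 117 and 124 CPM to 115, 164 and 157 CPM, with overlapping groups.

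The response in late G1 was last compared with that of early G1 and G2 cells, measured in other libraries of the same line. In the same fit 310 genes fell (2.2%) and 258 rose (1.83%) in early G1, and 767 fell (5.44%) and 813 rose (5.77%) in G2. Of the late G1 falls 239 were also called in early G1 (40.0% of the late G1 and 77.1% of the early G1 list) and 406 in G2 (68.0% and 52.9%). Of the rises 220 were shared with early G1 (32.5% and 85.3%) and 454 with G2 (67.1% and 55.8%). The phases share no library but share the replicate numbers and 1 estimate of the spread. Genes that fell in late G1 had a median change of -0.42 in early G1 and -0.48 in G2, and genes that rose 0.40 and 0.46.

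No difference in response between late G1 and another phase was called. A direct test of the difference called 0 genes (0%) against early G1 and 0 genes (0%) against G2 in edgeR, and 0 in DESeq2. An unadjusted p under 0.05 was reached by 135 and 219 genes, 0.958% and 1.55% of those tested. Both shares are below what this threshold would give if no gene differed. The test thus gave fewer small p values than that, and 0 calls do not show equal responses. The unequal numbers of calls in the 3 phases are not themselves a test of a difference. The smallest unadjusted p values belonged, against early G1, to Hsbp1l1 (difference of -2.86 ± 0.79), Tinagl1 (-1.25 ± 0.35) and Gpx7, a peroxidase (-0.47 ± 0.13), and, against G2, to Chil1 (2.59 ± 0.68), Romo1 (-0.49 ± 0.13) and Batf (-1.82 ± 0.50), all with an edgeR adjusted p of 0.99982 or more.

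The largest late G1 changes were also seen in the other phases. All 15 largest late G1 falls were called in early G1 and in G2, with Kdelr3 at -1.97 and -2.28 and Fabp3 at -1.52 and -2.03 in those phases. Of the 15 largest rises 12 were called in early G1 and 14 in G2. Ccnd2 changed by 1.89 and 2.39 there. Ppard was called in neither, at 0.31 ± 0.30 and 0.39 ± 0.30, but the difference from its late G1 change was 0.75 ± 0.43 and 0.67 ± 0.43 and did not pass. Esrrb itself changed by -0.58 ± 0.12 in early G1 and -0.53 ± 0.12 in G2, and the differences from late G1, -0.36 ± 0.17 and -0.42 ± 0.17, did not pass either.

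**Figure D5:**
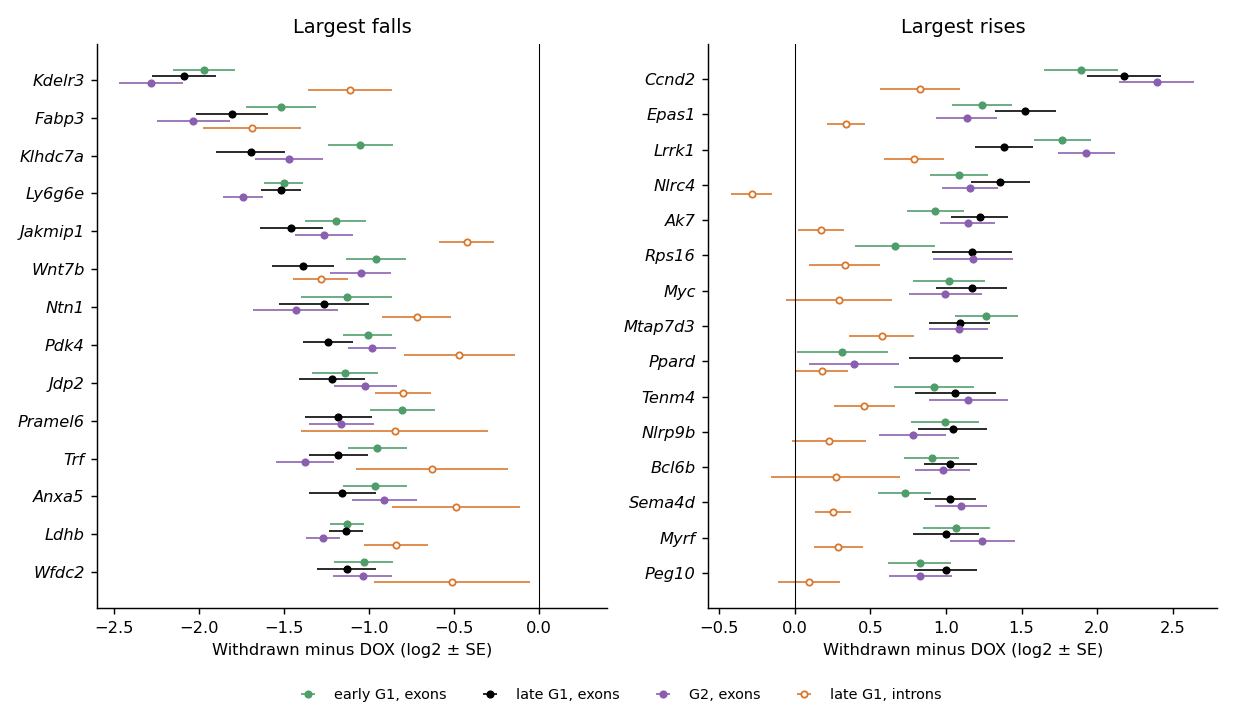
Change on withdrawal (log2 ± SE) of the largest late G1 falls (left) and rises (right) named in the text in exons of early G1 (green), late G1 (black) and G2 (purple) and in introns of late G1 (open orange). The exonic points of the 3 phases lie close together for most genes, Ppard being the widest apart among the rises, and the intronic points of the rises lie nearer to 0 than the exonic ones.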

How the data were processed

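Stranded mRNA libraries (Illumina TruSeq, per the labels' protocols) of 18 sorted populations, 6 of them late G1, were used. The values used are the authors' deposited raw counts over the exons, and over the introns, of RefSeq transcripts, per the file headers. The submitters' processing notes name mm9, CASAVA 1.8, Bowtie and DESeq2 without a role. Not given in the sources used here were the counter, annotation version and strand setting. Overlapping or antisense genes and near-identical copies are therefore uncertain singly. The deposited peak table gives the authors' pooled peak heights as log2 values in another unit with a decimal comma, used only to rank peaks, and classes 1 to 3 are the authors' Bookmarked class, per the file headers. In each count table the 27 symbols turned into dates were restored through RefSeq identifiers.

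All 18 libraries entered 1 edgeR fit (4.0.16, R 4.3.3) of 6 groups with replicate number as a block: filterByExpr, TMM, quasi-likelihood F test, Benjamini-Hochberg adjustment over all genes at 0.05. SE is the log2 change over the square root of F. CPM are TMM-scaled. The biological coefficient of variation was 0.115, and 0.187 without the block. The comparison was set to pair same-numbered libraries, and the labels give the numbers only. As a check, same-numbered late G1 libraries deviated together from their group means (correlations over genes of 0.444, 0.161 and 0.403). In early G1, DOX replicate 3 matched withdrawn replicate 2 better (0.243) than DOX replicate 2 did (0.188). In G2, DOX replicate 2 matched withdrawn replicate 3 better (0.140) than withdrawn replicate 2 (0.114). Alternatives were no block, a block per phase, late G1 alone, RLE, 2 filters, DESeq2 1.42.0 and each library or pair left out. The test was tested on simulated data.

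The comparison, gene lists and alternatives were chosen with earlier results of these data known. Named genes were Esrrb and Ccna2; the 15 largest falls and rises and 6 most abundant of each, called with the same sign in 3 pairs and at least 2 log2 CPM; called list members with up to 4 of the most abundant uncalled; up to 10 intronic calls; the 3 smallest p of each response difference; and the 5 highest peaks within 1 kb of called genes in each direction. Some genes that these rules choose are not reported here. Statements on lists give counts and medians without a set test. Depth per late G1 library was 11.8 to 21.0 M exonic counts.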

Additional observations from a re-analysis of the deposited data

How the results depend on the processing

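The pairing decides how many genes are called. With no replicate block 39 falls and 26 rises passed in late G1 exons, and 2 falls and 0 rises in introns; of 155 named called genes 33 stayed called, against 78 to 116 when 1 library was left out. A block within each phase left 258 falls and 263 rises, and the late G1 libraries alone, with 2 residual degrees of freedom, 202 and 354. Leaving out 1 library or 1 pair gave 139 to 411 falls and 166 to 531 rises in exons, and leaving out 1 library 10 to 37 falls and 4 to 26 rises in introns. DESeq2 called 89 falls and 103 rises in introns. RLE scaling, both filters and DESeq2 kept the exonic counts between 450 and 720 falls and between 724 and 942 rises. None of these 155 genes changed sign in an alternative in which it was tested; genes named without a call were not followed. Esrrb ran from -0.86 to -1.03 and passed in all. Both response differences stayed at 0 calls in every alternative run. Shallow genes limit what can be seen: 86 falls and 51 rises had a mean level under 2 log2 CPM.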
